A study of Homo sapiens with 24 samples.

Results

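Cytosolic DNA sensing was examined through 9 genes of the cGAS and STING pathway, chosen by symbol with earlier results of these data known: CGAS, STING1, TBK1, IFI16, TREX1, AIM2, SAMHD1, PQBP1 and ENPP1. Of these 9 genes, 8 have a row under their Ensembl gene ID among the 60236 genes of the count table, and STING1 is not analysed here. DNA in the cytosol is bound by the enzyme cGAS, which makes the cyclic dinucleotide cGAMP. cGAMP binds the membrane protein STING, STING recruits the kinase TBK1, and TBK1 activates transcription factors that turn on type I and type III interferons. Interferon then acts on the same and neighbouring cells and turns on a large set of antiviral genes, among which are some DNA sensors themselves. Plasmid DNA brought in by transfection is a known stimulus of this pathway.

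RNA-seq libraries were made from 2 human cell lines, each transfected for 48 h with 1 of 4 plasmids using the lipid reagent Lipofectamine 3000, with 3 libraries in each of the 8 groups. HEK293T is a kidney-derived line that carries a viral large T antigen, and A549 is a lung adenocarcinoma line with epithelial features. The scramble and snaR-A plasmids carry a U6 promoter in front of a scrambled sequence or of the noncoding RNA snaR-A. The eGFP and SF3B2 plasmids are protein expression vectors of another backbone (pcDNA3.1 type, per the study's methods), so promoter, backbone and insert cannot be told apart when eGFP or SF3B2 is set against scramble, whereas SF3B2 and eGFP differ in the insert. Every group received plasmid DNA and lipid and no untransfected cells are among the samples, so the scramble libraries serve below as the reference level of each line, not as a resting level. Per the study's methods, the libraries of a group are biological replicates handled on a single day, so the tests measure the spread within that day.

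The libraries held 195185935 to 260878271 counts. Levels are given as CPM, the share of a library's counts on a scale where all genes add up to a fixed total, after scaling by edgeR's TMM method over all 24 libraries, and the lists of other pathway genes and markers are described where they are used. Of the 10 A549 marker genes, 9 were above 1 CPM in every A549 library. The 5 HEK293T markers were above 1 CPM in every HEK293T library, though 3 of them were also above it in every A549 library. White blood cell markers summed to 1.33 to 2.19 CPM in HEK293T and 4.14 to 5.68 CPM in A549, with PTPRC at or near 0. Several libraries stood apart. HEK293T eGFP replicate 3 held 726 CPM of the 10 A549 markers, 3.44% of the median of the A549 libraries, against 4.04 to 21.5 CPM in the other 11 HEK293T libraries. A549 scramble replicate 3 held 8773 CPM of SF3B2, where the other A549 scramble libraries held 372 and 340 CPM. In the labels, A549 snaR-A replicate 3 is given as A549 in some fields and HEK293T in others, and its A549 markers were at the level of the A549 libraries. For the members, values without these libraries are given where a call changed, and for the main changes that rest on them.

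The members lie on 5 autosomes and chromosome X of GRCh38. On chromosome 1, the DNA sensors IFI16 (ENSG00000163565, 158999968 to 159055155, plus strand) and AIM2 (ENSG00000163568, 159061599 to 159187843, minus strand) are neighbours and belong to the same protein family. CGAS (ENSG00000164430) lies on chromosome 6 from 73413515 to 73452297 on the minus strand, and ENPP1 (ENSG00000197594) on the same chromosome from 131808016 to 131895155 on the plus strand. TBK1 (ENSG00000183735) lies on chromosome 12 from 64452090 to 64502114 (plus strand), SAMHD1 (ENSG00000101347) on chromosome 20 from 36890229 to 36951893 (minus strand), PQBP1 (ENSG00000102103) on chromosome X from 48890197 to 48903402 (plus strand) and TREX1 (ENSG00000213689) on chromosome 3 from 48465811 to 48467645 (plus strand). TREX1 is the member whose count is least certain. Of its 31-base words, 89.2% also occur in annotated transcripts of ATRIP, the gene it overlaps, so the division of reads between TREX1 and ATRIP was left to the quantification. For the other 7 members that share was 0.555% to 8.5%.

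The start regions of 4 members are printed because IFI16, SAMHD1 and TREX1 are the members that were higher with eGFP in A549 (below), and AIM2 is the neighbour of IFI16. Each is 250 bases before to 50 bases after a RefSeq start on GRCh38.p14, written 5′ to 3′ on the gene's strand, and capitals mark a match to the motif searched, GAAANNGAAA on both strands, a core of the element bound by interferon-activated factors.
IFI16 (chr1:159009657-159009956, plus strand): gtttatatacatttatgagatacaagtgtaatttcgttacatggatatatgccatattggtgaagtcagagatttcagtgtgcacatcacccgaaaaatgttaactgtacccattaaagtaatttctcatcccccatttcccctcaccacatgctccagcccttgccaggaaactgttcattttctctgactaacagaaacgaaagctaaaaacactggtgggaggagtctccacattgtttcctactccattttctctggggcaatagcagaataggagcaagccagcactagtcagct
SAMHD1 (chr20:36951659-36951958, minus strand): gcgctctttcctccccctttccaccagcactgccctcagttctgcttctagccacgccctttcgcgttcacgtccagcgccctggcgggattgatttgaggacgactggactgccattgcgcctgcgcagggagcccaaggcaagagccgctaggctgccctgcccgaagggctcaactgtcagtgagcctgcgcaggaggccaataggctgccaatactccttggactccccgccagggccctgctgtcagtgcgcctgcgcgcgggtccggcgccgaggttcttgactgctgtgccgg
TREX1 (chr3:48465580-48465879, plus strand): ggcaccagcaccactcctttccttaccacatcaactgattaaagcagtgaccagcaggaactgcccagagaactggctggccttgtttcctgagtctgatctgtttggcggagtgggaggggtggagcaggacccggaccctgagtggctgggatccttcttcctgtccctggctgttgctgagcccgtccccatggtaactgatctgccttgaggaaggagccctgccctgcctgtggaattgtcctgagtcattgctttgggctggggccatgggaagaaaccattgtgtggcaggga
AIM2 (chr1:159076717-159077016, minus strand): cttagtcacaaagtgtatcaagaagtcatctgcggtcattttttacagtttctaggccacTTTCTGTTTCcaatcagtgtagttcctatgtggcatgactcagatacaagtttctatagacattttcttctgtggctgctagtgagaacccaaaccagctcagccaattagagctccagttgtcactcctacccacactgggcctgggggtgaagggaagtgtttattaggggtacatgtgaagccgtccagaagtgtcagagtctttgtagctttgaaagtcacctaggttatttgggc
Of the 7 members with a RefSeq window, AIM2 alone held the motif, starting 190 bases before its start, and it is the member with almost no counts. The motif occurs in 3.57% of 34943 windows of this length. A further motif, TTCNNNGAA, was also searched, and it occurs in 7.66% of those windows and in no window of these members. This describes the letters in short windows, and the other window of IFI16 and the windows of TBK1, PQBP1 and ENPP1 also held no match.

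The sensors CGAS and IFI16 differed widely between the lines. CGAS, which encodes the enzyme cGAS, was close to absent in HEK293T with scramble, at 0.138, 0.129 and 0.123 CPM (30 to 40 counts a library), and stood at 26.4, 26.9 and 24.9 CPM in A549. The mean in A549 was 26.1 ± 1.03 CPM (SD, n = 3), and the fitted fold between the lines was 191 (log2 difference 7.58, standard error 0.10, adjusted p = 3.94e-10 by edgeR). Every adjusted p below comes from edgeR's quasi-likelihood test, adjusted over all genes tested, and a gene is said to pass when it is under 0.05. IFI16, a nuclear and cytosolic DNA-binding protein that acts with STING, had 0.802, 0.85 and 0.808 CPM in the HEK293T scramble libraries and 22.2, 19.8 and 17.2 CPM in those of A549. The A549 level of IFI16 was 23.1-fold higher (log2 difference 4.53, standard error 0.13, adjusted p = 1.01e-08 by edgeR). For CGAS and IFI16 every A549 library, with any plasmid, was above every HEK293T library.

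AIM2, which senses DNA and starts an inflammasome rather than the STING pathway, was at or near 0 in both lines. It had 0 counts in 9 of 12 HEK293T libraries and at most 1 in the others. In A549 it had 0 counts in 7 of 12 libraries, and the 2 libraries with more than 3 counts were eGFP replicates 1 and 3, with 8 and 7. The low-count filter removed it from every comparison, and at this depth a library with 0 counts could hide a level of up to 0.00965 to 0.0165 CPM, the worth of 3 counts (counting error only). PQBP1, a cofactor that cGAS uses to sense retroviral DNA, was at 43 ± 3.24 CPM (SD, n = 3) in HEK293T scramble and 54.7 ± 0.952 CPM in A549 scramble. Its log2 difference of 0.29 (standard error 0.07, adjusted p = 0.00491 by edgeR) passed, but with scaling by library size alone, which moved the median of all genes by -0.40, it was -0.11 (adjusted p = 0.156 by edgeR), so its direction between the lines depended on the scaling.

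TBK1, the kinase downstream of STING, was at 42.6, 43.6 and 44.3 CPM in HEK293T scramble and at 132, 127 and 120 CPM in A549 scramble. That is 2.78-fold higher in A549 (log2 difference 1.48, standard error 0.06, adjusted p = 6.09e-08 by edgeR), a far smaller distance between the lines than that of CGAS or IFI16.

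Of the enzymes that remove DNA, its building blocks or cGAMP, 2 differed between the lines in opposite directions and the third did not pass. TREX1, the main exonuclease for cytosolic DNA, had 0 counts in all 12 HEK293T libraries and 136 to 763 counts in every A549 library. Its A549 scramble level of 1.01 ± 0.37 CPM (SD, n = 3) was at least 81.9-fold higher than 3 counts a library would be in HEK293T scramble. That bound covers counting error only, not the division of reads with ATRIP. HEK293T eGFP replicate 3, the library with A549 markers, also had 0 counts of TREX1, with ATRIP at 23 CPM. ATRIP, with which TREX1 shares most of its sequence, was at 18.9 ± 0.334 CPM (SD, n = 3) in HEK293T scramble and 8.6 ± 0.823 CPM in A549 scramble, so the pair differed between the lines in opposite directions and their part in each other's counts was not tested. ENPP1, which hydrolyses cGAMP outside the cell, was the member higher in HEK293T, at 75, 75.9 and 75.5 CPM against 11.1, 12 and 10.4 CPM in A549. The fold was 7.04 in favour of HEK293T (log2 difference -2.82, standard error 0.07, adjusted p = 4.96e-09 by edgeR). SAMHD1, which breaks down DNA building blocks and helps to limit cytosolic DNA, was at 52.7, 52.8 and 53.2 CPM in HEK293T and at 54.5, 49.7 and 48.4 CPM in A549. Those libraries overlapped, and the log2 difference was -0.12 (standard error 0.06, adjusted p = 0.12 by edgeR). Scaling by library size alone moved the median of all genes by -0.40 in this comparison, more than this difference, so equal levels are not shown.

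In all, 6 of 7 tested members passed between the lines, 5 higher in A549 and 1 lower, where 77.5% of all genes tested passed, a share near that of the members. Their median log2 difference was 1.48, beside -0.01 over all genes. Per kilobase of the MANE transcript, the scale on which genes can be compared, the scramble levels in HEK293T ran from PQBP1 (41.8 CPM per kb) through TBK1 (14.4), SAMHD1 (11.4) and ENPP1 (10.1) to IFI16 (0.284) and CGAS (0.0407). In A549 they ran from PQBP1 (53.2 CPM per kb) and TBK1 (41.8) through SAMHD1 (10.9), CGAS (8.14), IFI16 (6.84) and ENPP1 (1.5) to TREX1 (0.92). The sensor cGAS was thus within the range of the pathway's other genes in A549, and below every member but TREX1 and AIM2 in HEK293T.

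**Figure D1:**
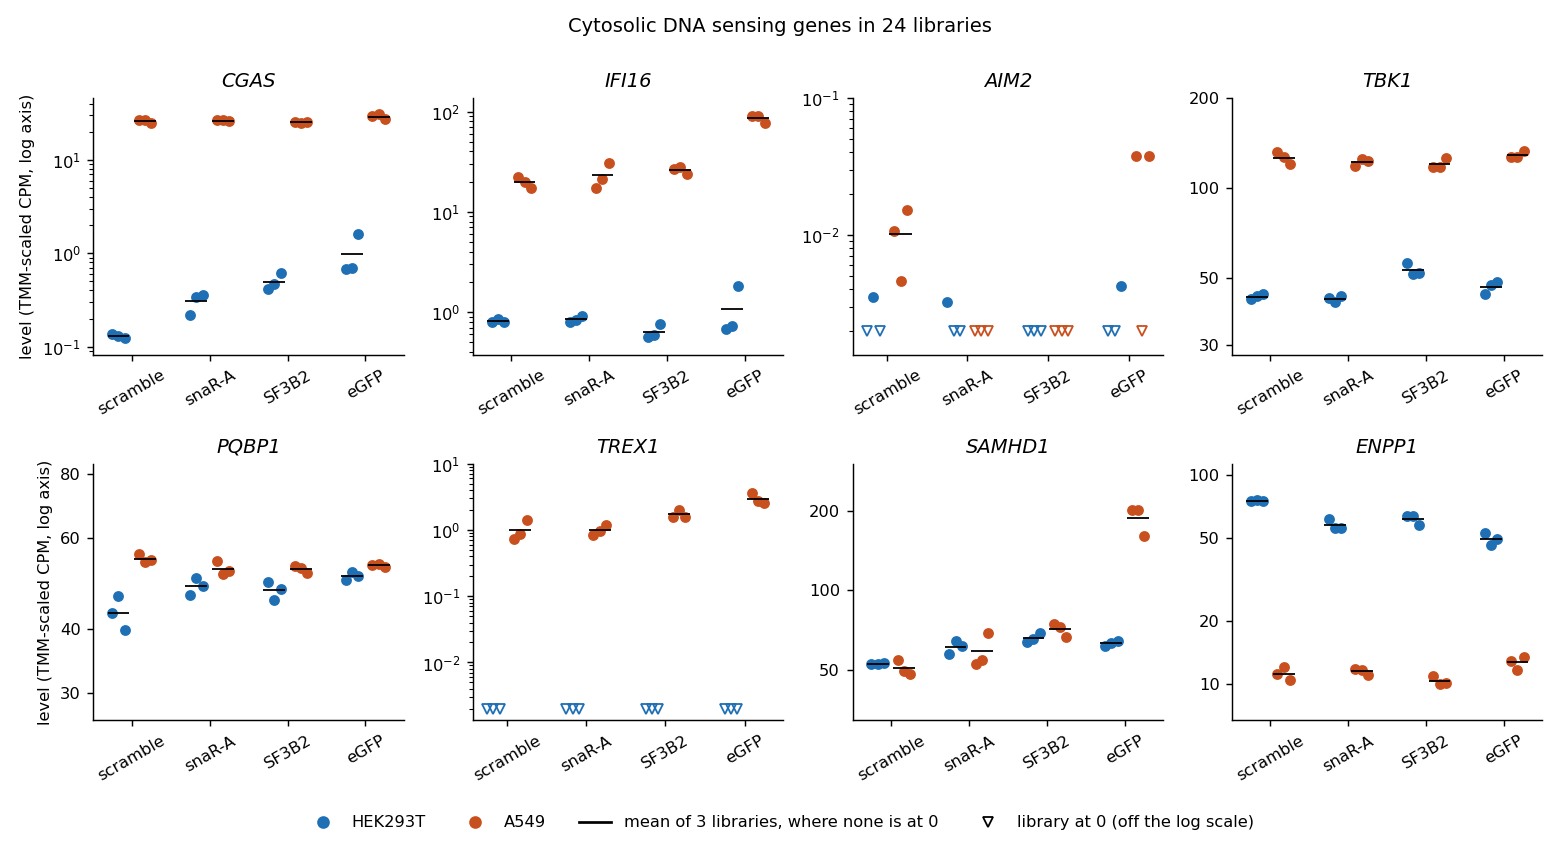
Level of each of the 8 members (TMM-scaled CPM, log axis) in every library by plasmid, blue for HEK293T and orange for A549, with a line at each mean of 3 libraries and open triangles for libraries at 0. CGAS and IFI16 sit far higher in A549 than in HEK293T, and ENPP1 sits higher in HEK293T. SAMHD1 is at 52.9 CPM in HEK293T and 50.9 CPM in A549 with scramble and reaches 187 CPM with eGFP in A549.

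Within HEK293T, the member with the largest change between plasmids was CGAS. It stood at 0.138, 0.129 and 0.123 CPM with scramble, at 0.219, 0.345 and 0.356 CPM with snaR-A, at 0.414, 0.464 and 0.609 CPM with SF3B2 and at 0.672, 0.699 and 1.6 CPM with eGFP. No group overlapped its neighbour in that order, and the highest group mean was 7.61 times the lowest. Against scramble, the log2 fold change was 1.24 with snaR-A (standard error 0.24, adjusted p = 0.00496 by edgeR), 1.93 with SF3B2 (standard error 0.22, adjusted p = 0.00141 by edgeR) and 2.92 with eGFP (standard error 0.37, adjusted p = 0.000734 by edgeR). These comparisons share the same 3 scramble libraries. SF3B2 against eGFP gave -1.01 (standard error 0.37, adjusted p = 0.194 by edgeR) and did not pass. Even with eGFP, CGAS in HEK293T was at 0.991 ± 0.529 CPM (SD, n = 3), below every A549 library, the lowest of which had 24.9 CPM.

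In HEK293T eGFP replicate 3, the library with A549 markers, the CGAS level of 1.6 CPM exceeded the mean of replicates 1 and 2 (0.686 CPM) by 0.917 CPM, and 3.44% of the A549 eGFP mean would be 0.996 CPM. For IFI16 the excess was 1.1 CPM over 0.708 CPM, where 3.44% of the A549 eGFP mean would be 2.96 CPM. The A549 group means ran from 25.2 to 29 CPM for CGAS and from 19.7 to 86 CPM for IFI16. For IFI16 the amount therefore depends strongly on which A549 group is taken, and eGFP is the highest. The source of the A549 markers in this library was not tested. Without replicate 3, the log2 fold change of CGAS against scramble was 2.39 (standard error 0.19, adjusted p = 0.000176 by edgeR) and still passed. The log2 fold change of IFI16 against scramble was 0.39 with all libraries (adjusted p = 0.405 by edgeR) and -0.21 without replicate 3 (adjusted p = 0.295 by edgeR), so the sign of IFI16 there rests on that library. SF3B2 replicate 3, the HEK293T library with the next highest sum of A549 markers at 21.5 CPM, also had the highest CGAS of its group, and SF3B2 against scramble kept a log2 fold change of 1.75 to 2.06 for CGAS with any 1 library left out.

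**Figure D2:**
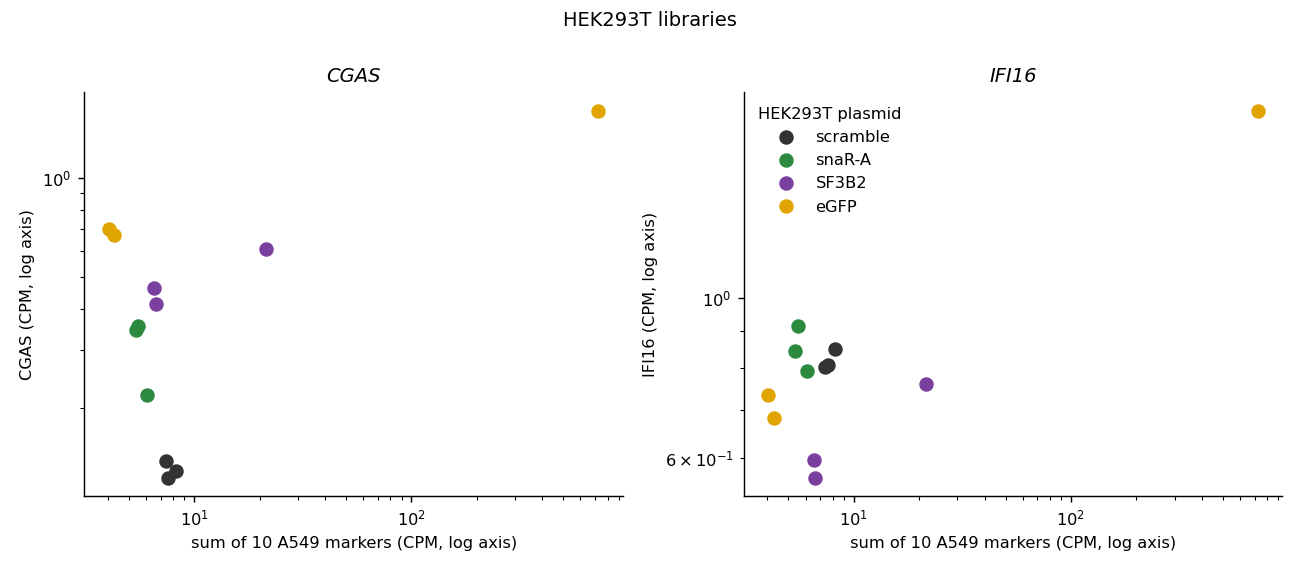
CGAS (left) and IFI16 (right) level in the 12 HEK293T libraries against the sum of 10 A549 marker genes, both in CPM on log axes, coloured by plasmid. eGFP replicate 3 lies apart at a marker sum of 726 CPM, while the other libraries keep the order of plasmids for CGAS at marker sums of 4.04 to 21.5 CPM.

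The other members moved little in HEK293T, though some small changes passed in these deeply sequenced libraries. ENPP1 was at 75.5 ± 0.46 CPM (SD, n = 3) with scramble and below it in every library of the other plasmids. It had 61.9, 55.8 and 55.6 CPM with snaR-A, 63.5, 63.7 and 58 CPM with SF3B2 and 52.7, 46.1 and 49.3 CPM with eGFP. Its log2 fold changes against scramble were -0.38, -0.28 and -0.61 in that order, all past the threshold (adjusted p of 0.00098, 0.00864 and 0.000191 by edgeR). SAMHD1 rose by a log2 fold change of 0.22 with snaR-A, 0.33 with SF3B2 and 0.26 with eGFP (adjusted p of 0.00594, 0.00437 and 0.00171 by edgeR), from 52.9 ± 0.233 CPM (SD, n = 3) to between 61.3 and 66.1 CPM. PQBP1 passed with eGFP (0.24, adjusted p = 0.0124 by edgeR) and with snaR-A (0.18, adjusted p = 0.0367 by edgeR), the latter lost without 4 of the 6 libraries, scramble replicates 1 and 3 and snaR-A replicates 2 and 3, down to a log2 fold change of 0.12. TBK1 passed with SF3B2 alone among the comparisons with scramble (0.30, standard error 0.06, adjusted p = 0.0069 by edgeR), at 56.3, 51.8 and 52.3 CPM. IFI16 passed in none of the HEK293T comparisons, and TREX1 and AIM2 were removed by the low-count filter.

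Many genes changed between plasmids in this line. In HEK293T, 4 of 6 tested members passed with eGFP against scramble, where 48.8% of all genes tested passed. With snaR-A it was 4 of 6 against 36.3% of all genes, and with SF3B2 4 of 6 against 34.3%. With the further limit of a log2 fold change above 1 or under -1, CGAS was the member that passed with eGFP, where 11.1% of genes did. In SF3B2 against eGFP 0 of 6 members passed by edgeR's quasi-likelihood test, where 0.172% of genes did, while 3 were under an unadjusted p of 0.05. By edgeR's exact test 1 passed and by DESeq2 1, where 644 and 2079 of 22623 genes passed. The nearest to the threshold there was ENPP1 (log2 fold change 0.31, adjusted p = 0.108 by edgeR). Without HEK293T eGFP replicate 3, the counts for eGFP against scramble and SF3B2 against eGFP were again 4 and 0. In these fits 10812 of 23259 and 13 of 23247 genes passed. Without SF3B2 replicate 3, 1 member passed in SF3B2 against eGFP, where 1883 of 23264 genes did. The count of 0 in that comparison thus depends on a single library.

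In A549, CGAS showed no change that passed between any plasmids by edgeR's quasi-likelihood test. Its libraries lay between 24.9 and 30.6 CPM, and the highest group mean was 1.15 times the lowest. With eGFP it stood at 29.3, 30.6 and 27 CPM, above all 3 scramble libraries, with a log2 change of 0.15 (SE 0.06, adjusted p = 0.759 by edgeR). SF3B2 against eGFP came nearest, at -0.19 (adjusted p = 0.0705 by edgeR). DESeq2 called 5 members there, CGAS and ENPP1 among them, where it called 2863 of 21581 genes. TBK1 stayed between 118 and 133 CPM over the 12 A549 libraries and PQBP1 between 51 and 55.8 CPM, and neither passed in any A549 comparison. ENPP1 ran from 10 to 13.4 CPM without a change that passed by edgeR.

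IFI16, SAMHD1 and TREX1 were the A549 members that rose with eGFP. IFI16 had 91.1, 89.9 and 77 CPM with eGFP against 22.2, 19.8 and 17.2 CPM with scramble, a 4.34-fold rise (log2 fold change 2.12, standard error 0.11, adjusted p = 0.000101 by edgeR). SAMHD1, which did not pass between the lines with scramble, had 201, 201 and 160 CPM with eGFP against 54.5, 49.7 and 48.4 CPM, a 3.67-fold rise (log2 fold change 1.87, standard error 0.10, adjusted p = 0.000103 by edgeR). In neither gene did the groups overlap, and eGFP replicate 3 was the lowest of its group in both. TREX1 had 3.62, 2.76 and 2.52 CPM with eGFP against 0.721, 0.879 and 1.43 CPM with scramble (log2 fold change 1.55, standard error 0.27, adjusted p = 0.0445 by edgeR). That call was near the threshold. It was lost without any of 5 libraries, the 3 eGFP replicates and scramble replicates 1 and 2, with adjusted p up to 0.238 by edgeR and log2 fold changes of 1.37 to 1.65. Without A549 scramble replicate 3, the library with high SF3B2, TREX1 gave 1.88 (adjusted p = 0.011 by edgeR), IFI16 2.03 and SAMHD1 1.84. ATRIP, which shares most of the TREX1 sequence, was at 8.1, 8.16 and 9.55 CPM with scramble and 10.3, 10.4 and 11.2 CPM with eGFP.

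So 3 of 7 tested members passed with eGFP against scramble in A549, all higher and all past the fold limit, where 1.49% of all genes passed and 0.908% passed with the fold limit. The median log2 fold change of the 7 was 0.18, beside -0.01 over all genes, since the other 4 members lay between -0.05 and 0.18. Without A549 scramble replicate 3 the count was again 3.

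With SF3B2, which is carried by the same kind of vector as eGFP, these genes were intermediate. IFI16 had 26.6, 27.9 and 23.9 CPM, above every scramble library and far under every eGFP library. SAMHD1 had 74.6, 72.9 and 66.7 CPM, and TREX1 1.57, 1.97 and 1.59 CPM, in the same position. Set against eGFP, the log2 fold change was -1.71 for IFI16 (standard error 0.08, adjusted p = 0.000104 by edgeR), -1.38 for SAMHD1 (standard error 0.09, adjusted p = 0.00039 by edgeR) and -0.78 for TREX1 (standard error 0.16, adjusted p = 0.0368 by edgeR). The TREX1 call was again lost without any of 5 libraries, eGFP replicates 1 and 2 and all 3 SF3B2 replicates, at log2 fold changes of -0.89 to -0.62. Here 3 of 7 members passed, all lower, where 7.02% of genes passed, and 2 passed with the fold limit, where 1.11% did. These comparisons share the eGFP libraries with those against scramble.

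Set against scramble, SF3B2 in A549 gave 1 passing member of 7, where 0.233% of genes passed. It was SAMHD1, with a log2 change of 0.50 (SE 0.06, adjusted p = 0.0468 by edgeR), a call lost without scramble replicate 2 or any SF3B2 replicate, with adjusted p up to 0.317 by edgeR. IFI16 gave 0.41 (adjusted p = 0.315 by edgeR) and TREX1 0.77 (adjusted p = 0.374 by edgeR). Without scramble replicate 3, the scramble library with 8773 CPM of SF3B2, both passed, IFI16 at 0.31 (adjusted p = 0.0346 by edgeR) and TREX1 at 1.09 (adjusted p = 0.00807 by edgeR). In that fit 4825 of 21989 genes passed.

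With snaR-A, 0 of 7 members passed in A549 against scramble by edgeR's quasi-likelihood test, where 0.0185% of genes did, and 0 were under an unadjusted p of 0.05 or passed by edgeR's exact test or DESeq2. IFI16 had 17.4, 21.2 and 30.7 CPM and SAMHD1 52.7, 54.4 and 69.3 CPM, so in both replicate 3, the library with conflicting labels, was the highest, and the groups overlapped with scramble. The log2 fold changes were 0.23 for IFI16 (standard error 0.20, adjusted p = 0.857 by edgeR) and 0.20 for SAMHD1 (standard error 0.11, adjusted p = 0.798 by edgeR), and CGAS gave 0.01 (standard error 0.05). Without replicate 3, IFI16 gave -0.04 (adjusted p = 0.985 by edgeR) and SAMHD1 0.07 (adjusted p = 0.921 by edgeR).

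**Figure D3:**
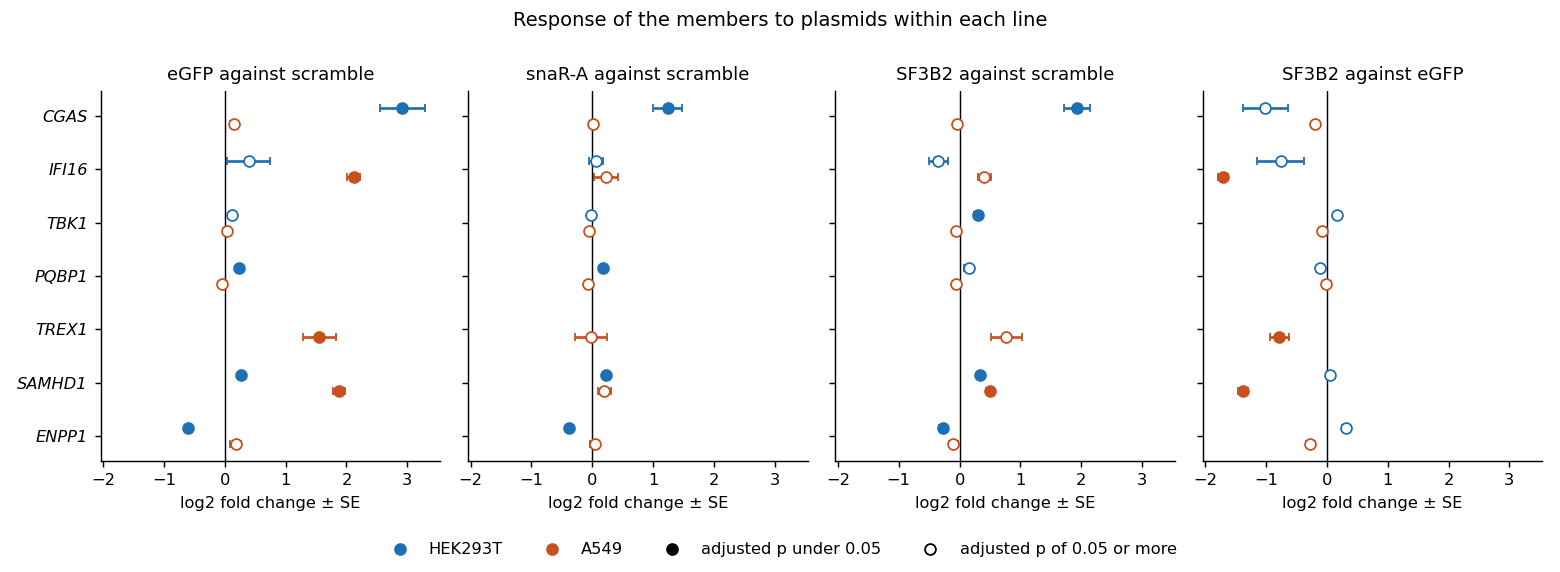
Log2 fold change with its standard error for the 7 members tested, in 4 comparisons of plasmids, blue for HEK293T and orange for A549, filled where the adjusted p is under 0.05. CGAS moves in HEK293T and stays near 0 in A549, while IFI16, TREX1 and SAMHD1 move by 2.12, 1.55 and 1.87 with eGFP in A549.

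The responses were then set against each other by an interaction test over the 12 libraries of each design. The eGFP effect against scramble differed between the lines for 4 of 7 tested members, where 26.4% of all genes did. It was smaller in A549 for CGAS, by -2.71 on the log2 scale (standard error 0.41, adjusted p = 0.00107 by edgeR), and -2.16 without HEK293T eGFP replicate 3. It was larger in A549 for IFI16 by 1.79 (standard error 0.43, adjusted p = 0.0107 by edgeR), or by 2.41 (standard error 0.16, adjusted p = 1.06e-05 by edgeR) without that library. It was also larger for SAMHD1 by 1.68 (standard error 0.12, adjusted p = 1.61e-05 by edgeR). ENPP1, which fell with eGFP in HEK293T, differed by 0.85 (standard error 0.10, adjusted p = 0.000264 by edgeR). TBK1 did not pass, at -0.02 (standard error 0.08), and no difference is given for TREX1, which is among the 7 tested but had 0 counts in HEK293T and so no usable error. PQBP1 gave -0.22 (standard error 0.08, adjusted p = 0.0609 by edgeR) with all libraries and -0.28 (adjusted p = 0.0185 by edgeR) without A549 scramble replicate 3.

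For snaR-A against scramble, 3 of 7 members differed between the lines, where 11.4% of genes did. The difference was -1.24 for CGAS (standard error 0.20, adjusted p = 0.00371 by edgeR), 0.40 for ENPP1 (standard error 0.08, adjusted p = 0.012 by edgeR) and -0.26 for PQBP1 (standard error 0.07, adjusted p = 0.0411 by edgeR). The PQBP1 call was lost without 11 of the 12 libraries taken singly, all but HEK293T scramble replicate 2, with values of -0.26 to -0.14. For SF3B2 against eGFP, 3 of 7 members differed, where 6.10% of genes did. These were SAMHD1 at -1.46 (standard error 0.12, adjusted p = 0.000339 by edgeR), ENPP1 at -0.61 (standard error 0.10, adjusted p = 0.00939 by edgeR) and TBK1 at -0.28 (standard error 0.07, adjusted p = 0.0443 by edgeR), the last lost without 10 of the 12 libraries taken singly, all but HEK293T eGFP replicate 3 and SF3B2 replicate 3. IFI16 gave -0.98 (standard error 0.42, adjusted p = 0.168 by edgeR) with all libraries and -1.58 (adjusted p = 0.00149 by edgeR) without HEK293T eGFP replicate 3.

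Set beside the scramble levels, the members fall into several patterns. CGAS, which was 191-fold higher in A549 with scramble, changed with plasmid in HEK293T and in no A549 comparison by edgeR's quasi-likelihood test. IFI16 and TREX1, also higher in A549, rose there with eGFP. SAMHD1, whose difference between the lines with scramble did not pass, rose with them. The TREX1 rise had a call near the threshold (adjusted p = 0.0445 by edgeR). Its difference between the lines is uncertain, since the division of its reads with ATRIP was not tested. In HEK293T SAMHD1 also passed against scramble with each plasmid, at log2 fold changes of 0.22 to 0.33. TBK1 differed between the lines. Its group means differed by at most 1.07 times in A549 and 1.25 times in HEK293T, where it passed with SF3B2 against scramble. ENPP1 was higher in HEK293T and changed with plasmid there. In bulk libraries such as these, more cells that express a gene and more RNA of it per cell cannot be told apart.

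The rest of the pathway was read from a list of 56 further genes, 55 of which have a row, in groups of other DNA sensors and cofactors, the AIM2 inflammasome, other nucleases, transport and hydrolysis of cGAMP, regulators of STING, kinases and transcription factors, and induced products. This list was chosen with earlier results of these data known, so its counts are a description and not an independent test. In A549 with eGFP against scramble, 13 of 51 tested genes rose and 0 fell, where 1.49% of all genes passed, and 0 were lower at an unadjusted p under 0.05, by edgeR's exact test or by DESeq2. All 10 induced products were among them, and 2 of the other 3, TRIM56, a regulator of STING, and AZI2, an adaptor of TBK1, were under the fold limit. IFNB1, which encodes interferon beta, had 0.0477, 0.121 and 0.183 CPM with scramble and 1.31, 1.54 and 1.08 CPM with eGFP (log2 fold change 3.47, standard error 0.41, adjusted p = 0.00595 by edgeR). IFNL1, a type III interferon, gave 3.70 (standard error 0.22, adjusted p = 0.000143 by edgeR). IFIT2, which binds viral RNA, went from 51.3 ± 6.21 CPM (SD, n = 3) to 550 ± 67.1 CPM, and CASP1, the inflammasome protease, from 0.383 ± 0.05 CPM to 2.01 ± 0.208 CPM. The sum of the 10 induced products was 226 ± 29.5 CPM (SD, n = 3) with scramble, 496 ± 70.5 CPM with SF3B2 and 2234 ± 276 CPM with eGFP. With snaR-A its libraries held 226, 312 and 444 CPM, highest in replicate 3. Among the 12 other DNA sensors and cofactors tested, 0 passed with eGFP by edgeR's quasi-likelihood test and 1 was under an unadjusted p of 0.05. By edgeR's exact test 0 passed and by DESeq2 1, where 422 and 532 of 21578 genes passed.

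In A549 with SF3B2 against eGFP, 16 of 51 genes of the list fell and 3 rose, where 7.02% of all genes passed. The 10 induced products all fell, from -2.26 for IFNL2 to -1.22 for CCL5 on the log2 scale. CASP1 fell by 1.89 and ZBP1, a sensor of nucleic acids in the Z form, by 2.12. Set against scramble, SF3B2 gave 3 passing genes of the list, where 0.233% of all genes passed. They were IFIT1 (1.17), IFIT2 (1.20) and IFIT3 (1.02), with adjusted p of 0.043, 0.0316 and 0.043 by edgeR. No gene at all passed there with the replicate block, or without scramble replicate 2, SF3B2 replicate 1 or SF3B2 replicate 2. Without scramble replicate 3, 4825 of 21989 genes passed, and values of these 3 genes in that fit are not given. With snaR-A, where 0.0185% of all genes passed, the list gave 0 of 51 by edgeR's quasi-likelihood test, its exact test and DESeq2, with 4 under an unadjusted p of 0.05. The reads of IFNL2 and IFNL3, near-identical copies, cannot be divided with certainty.

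In HEK293T the same list moved by small steps. With eGFP against scramble 10 of 42 tested genes rose and 7 fell, where 48.8% of all genes passed, and 2 were past the fold limit, where 11.1% of all genes were. CCL5, a chemokine, had 0.836, 0.853 and 0.92 CPM with eGFP against 0.256, 0.392 and 0.209 CPM with scramble (log2 fold change 1.60, adjusted p = 0.00134 by edgeR). ISG15, an interferon-induced protein modifier, had 2.11, 2.25 and 2.11 CPM against 0.889, 0.923 and 0.973 CPM (log2 fold change 1.22, adjusted p = 0.000196 by edgeR). Replicate 3, with its A549 markers, was level with the others of its group in these 2 genes. IFNB1 had at most 1 count in any HEK293T library, and IFIT1 stood at 6.9, 6.59 and 14.4 CPM with eGFP against 9.41, 11 and 10.1 CPM with scramble. With snaR-A against scramble 7 genes rose and 4 fell, where 36.3% of all genes passed, and with SF3B2 against scramble 5 rose and 6 fell, where 34.3% did. With SF3B2 against eGFP 0 passed by edgeR's quasi-likelihood test, where 0.172% of all genes did, and 9 were under an unadjusted p of 0.05. By edgeR's exact test 2 passed and by DESeq2 4, where 644 and 2079 of 22623 genes passed. The HEK293T sum of the induced products was 11 to 15.2 CPM in 11 libraries and 26.3 CPM in eGFP replicate 3.

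**Figure D4:**
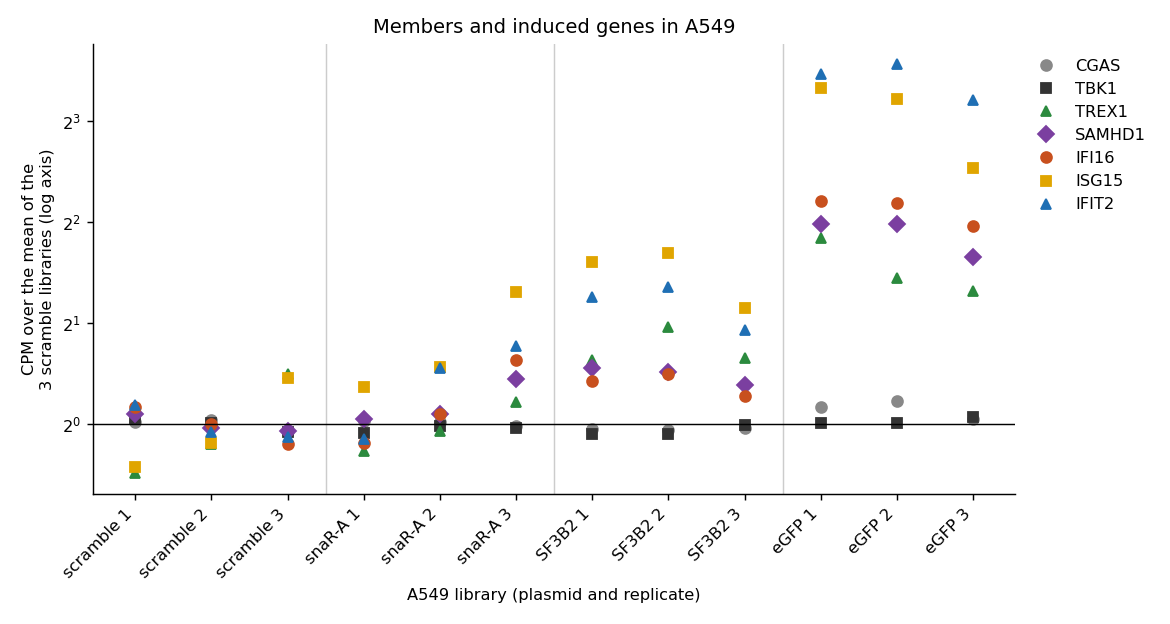
Level in each of the 12 A549 libraries over the mean of the 3 scramble libraries (log axis) for 5 members and 2 induced genes, by plasmid and replicate. CGAS and TBK1 stay near 1 in every library, while IFI16, SAMHD1 and TREX1 are highest in the 3 eGFP libraries, where the induced genes IFIT2 and ISG15 are highest too.

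Genes other than the members with the A549 pattern most like that of a member were looked for among 12001 genes, by the root mean squared difference of the 4 group means of log2 CPM after centring. For IFI16 they were DDX60L (0.052) and SAMD9 (0.0558), for SAMHD1 SHFL (0.0271) and GBP3 (0.0334), and for TREX1 LGALS3BP (0.109) and ISG20 (0.125). Between the members themselves the difference was 0.122 for IFI16 and SAMHD1, 0.249 for SAMHD1 and TREX1 and 0.367 for IFI16 and TREX1. IFI16 was at -0.68 with scramble, -0.48 with snaR-A, -0.27 with SF3B2 and 1.44 with eGFP on that centred scale, and SAMHD1 at -0.64, -0.44, -0.15 and 1.23. This likeness is a description over 4 groups of 3 libraries each.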

How the data were processed

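Gene expression was analysed from 24 poly(A) RNA-seq libraries. The authors trimmed reads with Trim Galore, quantified them with Salmon on a human transcriptome (hg38) and deposited 1 table of estimated counts per Ensembl gene, not normalized between libraries. The transcriptome release and the step from transcripts to genes are not given in the sources used here. Of the values, 51% were not whole and were rounded, which took 0.034% to 0. Symbols were paired with 54903 IDs, and the 5333 other IDs held 2.53% of the counts. For each comparison, genes kept by filterByExpr were scaled by TMM (factors of 0.801 to 1.25 over all libraries) and tested with the quasi-likelihood F-test of edgeR 4.0.16 in R 4.3.3, with Benjamini-Hochberg adjustment over all genes tested. A gene passed at an adjusted p under 0.05, and the limit of a log2 fold change of 1 was applied as a second rule. With 3 libraries against 3, the smallest two-sided exact permutation p is 0.1. DESeq2 1.42.0 and the exact test of edgeR, which the study used, were alternatives. Other settings were RLE scaling, library size alone, no low-count filter, a shared fit, the replicate block and leaving out each library. The tests were checked on simulated counts for A549 eGFP against scramble, the line comparison and the eGFP difference, with large changes and an even spread. That check does not cover small changes or libraries that stand apart. Positions are from GENCODE 44 on GRCh38 and promoters from RefSeq GRCh38.p14. Members and gene lists were chosen with earlier results of these data known. Named from the lists were genes past the fold limit in eGFP against scramble or SF3B2 against eGFP, or past a log2 difference of 3 between the lines. TRIM56, AZI2, and IFIT1 to IFIT3 in SF3B2 against scramble, were named after their values were seen.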

Additional observations from a re-analysis of the deposited data

Results flagged for a closer look

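The effect of a plasmid differed between the lines, by the interaction test of edgeR with an adjusted p under 0.05, for 10 pairs of member and comparison, all given above as the A549 effect minus the HEK293T effect on the log2 scale. For eGFP against scramble these were CGAS (-2.71), IFI16 (1.79), SAMHD1 (1.68) and ENPP1 (0.85). For snaR-A against scramble they were CGAS (-1.24), ENPP1 (0.40) and PQBP1 (-0.26). For SF3B2 against eGFP they were SAMHD1 (-1.46), ENPP1 (-0.61) and TBK1 (-0.28). The comparisons share scramble or eGFP libraries, so these differences are not independent of each other.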

How the results depend on the processing

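With single-member results taken one at a time, 34 passed (TREX1 between the lines, with no counts in HEK293T, left aside), and under the settings other than leaving out a library they gave 228 values. Of these, 213 kept their direction and side of the threshold, 14 kept their direction and no longer passed, and 1 reversed. The reversed value was PQBP1 between the lines, -0.11 with scaling by library size alone. Leaving out each library gave 264 values, of which 225 kept direction and threshold, 39 no longer passed and 0 reversed. In A549 SF3B2 against scramble, the number of members that passed (1) was 2 with the exact test of edgeR and with DESeq2, and 0 with RLE scaling, with all 12 libraries of the line in one fit and with the replicate block. In HEK293T SF3B2 against eGFP it was 1 with the exact test and with DESeq2 and 2 with all 12 libraries in one fit, and in A549 SF3B2 against eGFP it was 5 with DESeq2. All genes that passed moved as well, among 21461 to 23869 tested. In A549 SF3B2 against scramble they went from 50 to 214 (exact test), 376 (DESeq2), 27 (RLE), 20 (one fit) and 0 (replicate block). In HEK293T SF3B2 against eGFP they went from 39 to 644 (exact test), 2079 (DESeq2) and 2075 (one fit). In A549 SF3B2 against eGFP they went from 1516 to 2863 with DESeq2. The cause of these changes was not tested. With 1 library left out, the number of members that passed ran from 4 to 5 for eGFP against scramble in HEK293T and 2 to 3 in A549, from 3 to 4 for snaR-A in HEK293T and 0 to 0 in A549, from 4 to 5 for SF3B2 against scramble in HEK293T and 0 to 3 in A549, from 0 to 1 for SF3B2 against eGFP in HEK293T and 2 to 4 in A549, and from 6 to 7 between the lines. For the differences between lines it ran from 4 to 5 (eGFP), 2 to 3 (snaR-A) and 2 to 4 (SF3B2). All genes that passed ran from 8600 to 10812 for eGFP against scramble in HEK293T and 205 to 326 in A549. With snaR-A it was 5131 to 8318 and 1 to 53, HEK293T first. With SF3B2 against scramble it was 3892 to 8996 and 0 to 4825. With SF3B2 against eGFP it was 1 to 1883 and 379 to 3273, and between the lines 16994 to 18366. For the differences it was 5016 to 6743 (eGFP), 1262 to 4268 (snaR-A) and 423 to 4527 (SF3B2). The 3 members reached in A549 SF3B2 against scramble needed scramble replicate 3 left out, and all genes that passed there then went from 50 to 4825. Replicate numbers gave no clear pairing of the libraries. The deviations of same-numbered libraries from their group means had median correlations of 0.0245 in HEK293T and -0.026 in A549 over 18 pairs each. Single pairs ran from -0.126 to 0.221 in HEK293T and from -0.366 to 0.382 in A549, so pairing of some libraries is not excluded. The replicate block took all genes that passed in A549 eGFP against scramble from 322 to 168. With the replicate block, TREX1 in A549 gave 1.59 with eGFP against scramble (adjusted p = 0.298 by edgeR) and -0.77 with SF3B2 against eGFP (adjusted p = 0.0827 by edgeR). Scaling by library size alone moved the median of all genes by over 0.1 in 4 more comparisons, by 0.11 (HEK293T eGFP against scramble), -0.16 (HEK293T SF3B2 against eGFP), -0.13 (eGFP difference) and 0.17 (SF3B2 difference). Levels per kilobase were lower over the union of annotated exons, for example 0.0312 for CGAS in HEK293T and 6.25 in A549. AIM2 had 0 or 1 count in each HEK293T library, and the part of read division with ATRIP in the 0 counts of TREX1 there was not tested.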

Other observations

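Some genes of the AIM2 inflammasome and of cGAMP transport and hydrolysis differed widely between the lines with scramble. IL18, a cytokine released by inflammasomes, was at 92.1 ± 4.55 CPM (SD, n = 3) in A549 and 0.541 ± 0.0437 CPM in HEK293T. CASP1 was at 0.383 ± 0.05 CPM in A549 and had at most 1 count in each HEK293T scramble library. PYCARD, the adaptor of AIM2, and IL1B were at 2.86 ± 0.789 and 0.373 ± 0.0583 CPM in A549 scramble and at 0 in every HEK293T scramble library, while AIM2 itself was near 0 in both lines. ABCC1, an exporter of cGAMP, was at 175 ± 9.03 CPM in A549 and 12.5 ± 0.661 CPM in HEK293T (log2 difference 3.75, adjusted p = 1.18e-09 by edgeR). ENPP3, a relative of ENPP1 that also hydrolyses cGAMP, was lower in A549, as ENPP1 was, at 0.0456 ± 0.0661 CPM against 0.993 ± 0.00658 CPM (log2 difference -4.53, adjusted p = 0.000572 by edgeR). Of 47 genes of the pathway list tested between the lines, 24 were higher in A549 and 15 lower, where 77.5% of all genes passed.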
